A study of Drosophila melanogaster with 26 samples.

Results

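Maternal transcripts that build the germ plasm, or that act in the cells it makes, were followed through the maternal-to-zygotic transition of the Drosophila primordial germ cells (PGCs). The 6 genes were osk, gcl, orb, pum, pgc and zpg. The deposited table names its rows by transcript identifiers only, so a gene was found by setting values computed from the table against the values printed in the study's gene lists and keeping the rows that gave the same figures, with those lists used as a key for names and for nothing else. Of 16623 transcript rows tested, 5395 rows of 4800 genes could be named in this way, and 8 of these rows belong to the 6 genes. Each gene is represented by its brightest named row, and the other 2 named rows of orb are treated as isoforms. Because the lists had been drawn up from these samples, and hold mostly transcripts of PGCs, the named rows are not a random draw of the transcriptome.

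RNA was measured in 26 samples of 7 groups, with VASA-GFP, which marks the PGCs, carried in both genotypes. Wild-type embryos (the labels list w1118 and VASA-GFP/CyO ; PrDr/TM3,Sb flies) gave GFP-positive PGCs at 1-3, 3-5 and 5-7 h and GFP-negative somatic cells at 1-3 h, with 4 replicates each. Embryos of smg1/Df(3L)Scf-R6 mothers, called smg below, gave PGCs at the same ages with 3, 3 and 4 replicates. In these mutants the function of Smaug is impaired, an RNA-binding protein that represses and destabilizes maternal mRNAs. The age is that of a pooled, timed collection of embryos, cells were gated by high or low GFP fluorescence, and somatic cells of smg embryos were not analysed here. The labels and the methods call the replicates biological, though the passage on RNA extraction also mentions technical ones, and the p-values measure the spread between these samples.

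The germ plasm is a cytoplasm at the posterior pole of the oocyte and embryo that holds RNA and protein granules, and it directs the cells that take it up to become the germ line. Oskar protein nucleates it, and its granules hold mRNAs that are repressed elsewhere and translated in the pole. The PGCs bud off before the somatic cells form, stay transcriptionally silent for a time, and then replace maternal RNA by their own.

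The values were log2 of the deposited intensity, on which a difference of 1 is a 2-fold change. The top value of a sample lay between 15.83 and 15.99, so a transcript near 16 had no room to rise. The samples had been quantile normalized by the authors, and a change in the amount of RNA per cell is therefore not visible. In these sorted cells, fewer cells of a type and less RNA per cell cannot be told apart. A row was called when limma's Benjamini-Hochberg adjusted p over the 16623 rows was at most 0.05 and the fold change exceeded 2.

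The samples were first set against their labels. The smg transcript was at 13.25 to 13.98 in wild-type and 11.19 to 11.73 in smg PGCs at 1-3 h, a difference of -2.18 (limma adjusted p = 0.0013). The 12 named somatic markers, such as the collagen gene Cg25C and the neuroblast and ectoderm gene pdm2, were summed as linear intensity. Of these 12, 9 were called lower in PGCs than in somatic cells at 1-3 h, and tll, zen and sim were not, beside 17.5% of all rows. All 7 named PGC markers, of a list of 9, were called higher, beside 18.5% of all rows, and pgc, gcl, osk and zpg are among them. Rows were named through the study's lists, which include transcripts enriched in these same PGC or somatic samples. Neither count is therefore an independent check of the labels. The somatic sum was 6.97% to 9.07% of the somatic mean in wild-type PGCs at 1-3 h, 15.5% to 19.99% at 3-5 h and 2.68% to 5.47% over all smg PGC samples. In wild-type PGCs at 5-7 h it was 10.4% and 8.76% in replicates 1 and 2 but 67.9% and 62.6% in replicates 3 and 4. The sum of nos, aub and piwi, 3 PGC markers other than the 6 genes, stood at 70.0% and 64.2% of its wild-type 1-3 h mean in replicates 1 and 2 and at 9.47% and 20.4% in replicates 3 and 4. In the somatic samples it was 8.14% to 9.06%, and in smg PGCs 151% to 155% at 1-3 h, 109% to 132% at 3-5 h and 100.3% to 112% at 5-7 h. Replicates 3 and 4 of wild-type PGCs at 5-7 h thus stand apart and go against their label by both sums. Of the other named PGC markers, pgc (14.92 and 15.08) and zpg (13.77 and 14.41) were still above every somatic sample in them, and osk and gcl were not. Calls that rest on these replicates are also given without them. By the labels, all PGC samples were labelled with Cy5 except those of smg at 3-5 h, which like the somatic cells were labelled with Cy3. The methods instead assign Cy3 to wild-type and Cy5 to smg1/Df material. If the labels hold, dye and group cannot be told apart in any comparison that sets the somatic or the smg 3-5 h samples against others. If the methods hold, dye and genotype cannot be told apart at any age.

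**Figure D1:**
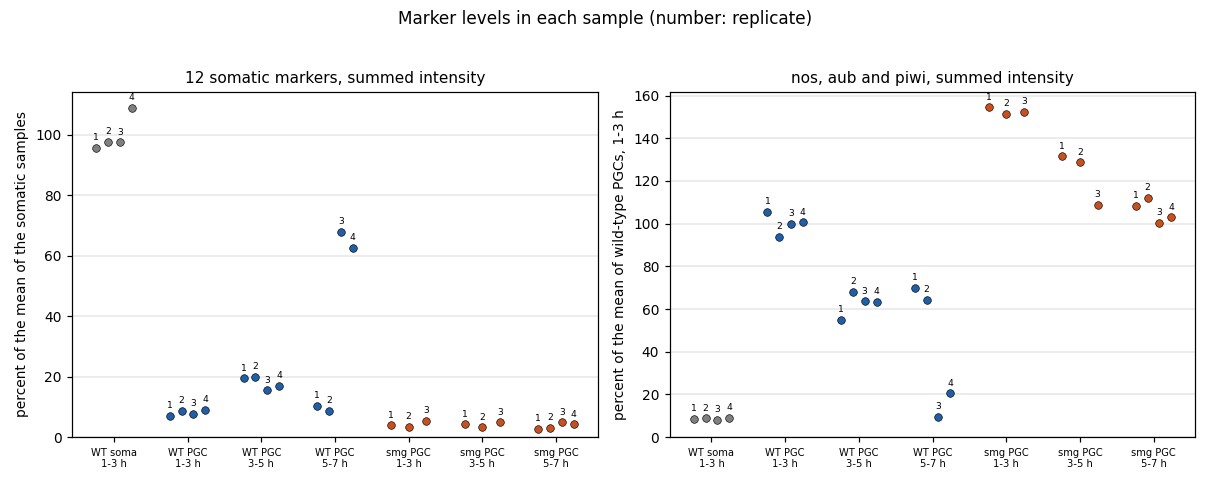
Summed linear intensity of 12 somatic markers (left, percent of the mean of the somatic samples) and of nos, aub and piwi (right, percent of the mean of wild-type PGCs at 1-3 h) in each of the 26 samples, numbered by replicate. Replicates 3 and 4 of wild-type PGCs at 5-7 h sit at 67.9% and 62.6% on the left and at 9.47% and 20.4% on the right, away from replicates 1 and 2.

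Newly formed PGCs were compared with the somatic cells of the same embryos to ask how far each transcript is concentrated in them. All 6 transcripts were higher in PGCs, by 7.34-fold for pum to 17.6-fold for orb, and no PGC sample overlapped a somatic one. Their rows are all in the study's list of transcripts that differ between these same PGC and somatic samples. That all 6 were called was thus largely fixed in advance, and only the sizes are described. Of all rows, 18.5% were called higher in PGCs, and 28.9% had all PGC samples above all somatic ones. The median difference was 3.58 over the 6 genes and 0.15 over all rows.

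For osk (FBgn0003015, transcript CG10901-RA), whose protein starts germ plasm assembly, the wild-type PGCs at 1-3 h read 12.90, 12.52, 12.50 and 11.83. The somatic samples read 9.41, 9.95, 9.03 and 8.25. Every PGC sample was thus above every somatic one, with replicate 4 the lowest of each group, and the difference was 3.28 ± 0.36 (SE, n = 4 and 4, limma adjusted p = 4.67e-05). A level of 8.26 is the 95th percentile of the 20 control rows, so that osk in somatic replicate 4 was at the level of the dim rows.

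Germ cell-less, the product of gcl (FBgn0005695, CG8411-RA), acts in PGC formation and is an adaptor for protein degradation. Its PGC samples read 14.80, 14.92, 14.98 and 14.79 and its somatic samples 11.38, 11.23, 11.36 and 11.49. Both groups were tight, and the gap between them was 3.51 ± 0.13 (SE, limma adjusted p = 8.28e-08). Among all rows, gcl was at rank 106 to 178 from the top in these PGC samples.

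Orb, the CPEB protein of the Drosophila germ line, promotes polyadenylation and translation of osk mRNA in the oocyte, and is encoded by orb (FBgn0004882, CG10868-RA). Its PGC samples read 13.76, 13.40, 13.70 and 13.44 and its somatic samples 9.39, 9.72, 9.35 and 9.30. No sample of either group came near the other, and the difference of 4.13 ± 0.16 (SE, limma adjusted p = 8.86e-08) was above that of the other 5 genes.

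Pumilio, from pum (FBgn0003165, CG9755-RA), is the repressor that works with Nanos on mRNAs such as hunchback and Cyclin B. Its PGC samples read 15.20, 14.79, 15.14 and 14.90 and its somatic samples 12.13, 12.24, 12.19 and 11.96. The groups did not overlap, and the difference of 2.88 ± 0.15 (SE, limma adjusted p = 4.35e-07) was below that of the other 5 genes. The somatic level was 13.6% of the PGC level.

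The small protein of pgc (FBgn0016053, CG32885-RC) holds back transcription in early PGCs by keeping P-TEFb, the kinase that lets RNA polymerase II elongate, from its template. Its PGC samples read 15.58, 15.56, 15.61 and 15.41 and its somatic samples 12.23, 12.28, 11.46 and 11.59. The PGC samples were close together near the top of the scale, at rank 11 to 31 of all rows. The difference was 3.65 ± 0.21 (SE, limma adjusted p = 7.99e-07).

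The innexin of zpg (FBgn0024177, CG10125-RA) forms gap junctions between germ cells and the somatic cells that support them, and is needed for early germ cells to survive and differentiate. Its PGC samples read 15.35, 15.21, 15.52 and 15.46 and its somatic samples 11.96, 11.53, 11.34 and 11.18. The groups were apart by 3.88 ± 0.19 (SE, limma adjusted p = 2.91e-07), and zpg was at rank 18 to 62 of all rows in the PGCs. Beside these values, the somatic level of the 6 genes was 5.69% to 13.6% of the PGC level, and that of nos, aub and piwi together was 8.14% to 9.06%. Whether PGC RNA in the somatic samples has a part in this was not tested.

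**Figure D2:**
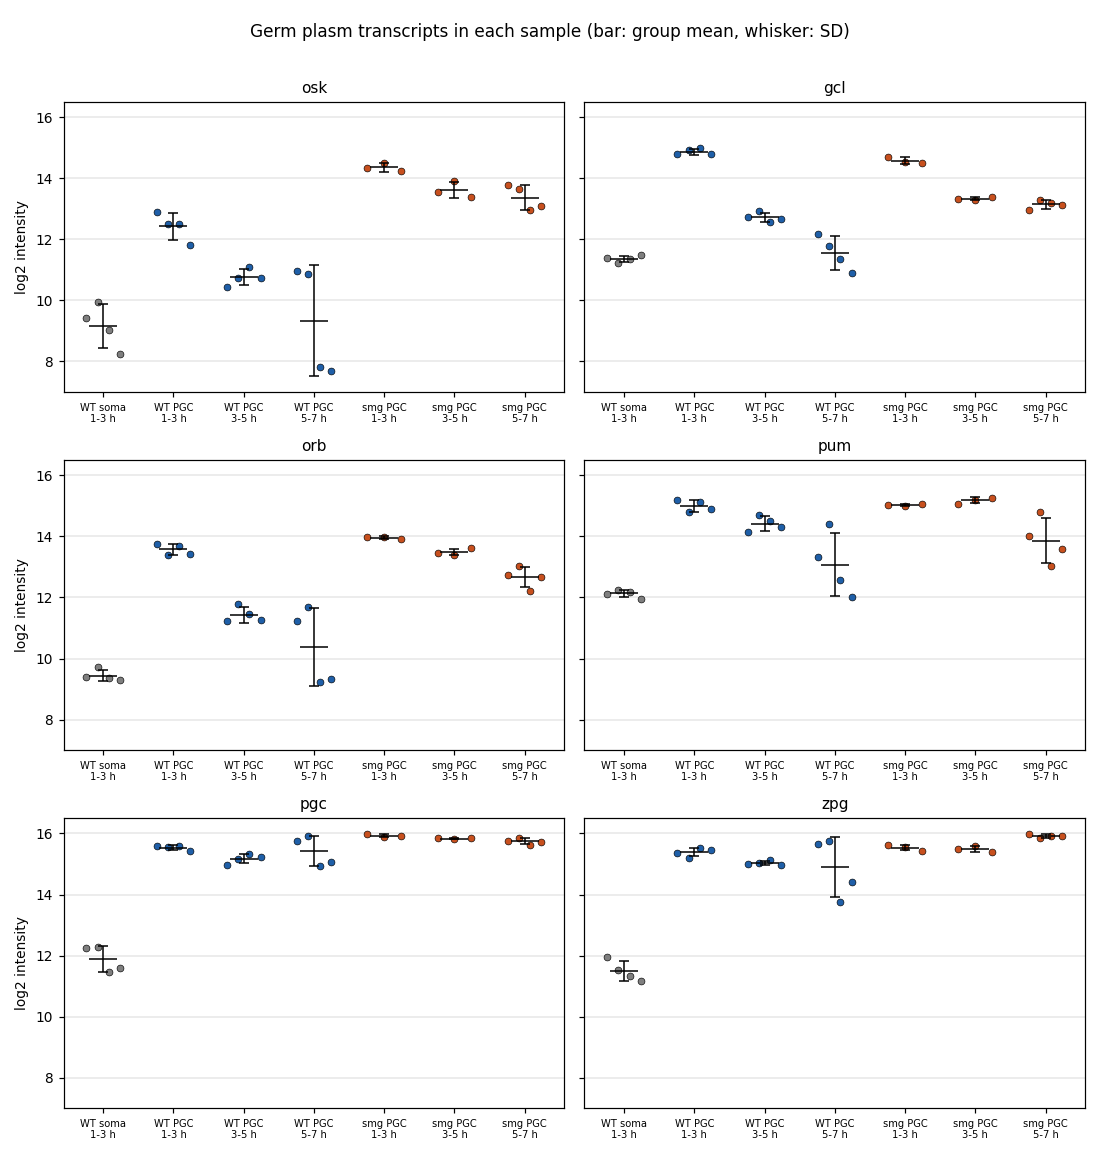
Log2 intensity of the 6 transcripts in each of the 26 samples, by group. Bars are group means and whiskers are SDs. The PGC samples at 1-3 h lie above the somatic samples for every gene, osk lies higher in smg than in wild-type PGCs at each age, and for pgc and zpg every PGC sample lies above every somatic one.

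The wild-type time course asks which of these RNAs the PGCs lose as they leave maternal control. From 1-3 h to 3-5 h, gcl, orb and osk fell by more than 2-fold, and pum, pgc and zpg were not called. That is 3 of 6 genes, where 8.22% of all rows were called lower. For all 6 genes every 3-5 h sample lay below every 1-3 h sample, and 17.7% of all rows did so. The rows of osk, gcl and orb are in the study's list of transcripts that fall between ages in these wild-type PGCs. That of zpg is in its list of transcripts that stay constant from 1 age to the next. All 6 are also in the list drawn from the 1-3 h PGC and somatic samples. The counts are thus not an independent test, and the sizes are described. By the labels all these wild-type samples carried Cy5. The somatic marker sum rose over the same interval, as given above, from 6.97% to 9.07% up to 15.5% to 19.99% of the somatic mean. That of nos, aub and piwi went from 93.95% to 105% down to 55.02% to 68.2% of its early mean. Single markers went both ways. Of the 12 somatic ones 7 were called higher and 2 lower, beside 9.02% and 8.22% of all rows. The means of tll (10.7 to 12.8) and zen (11.1 to 12.4), not called lower in PGCs above, rose. Those of sna (10.6 to 8.2) and sim (9.9 to 7.7) fell. For nos and piwi the means fell, from 14.7 to 13.9 and from 13.8 to 12.9, while aub was at 12.5 and 12.7. The part of either sum in the falls was not tested.

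At 3-5 h gcl read 12.72, 12.93, 12.56 and 12.66. These values lie close together, and all are below every early sample. The fall was 2.15 on the log2 scale (SE 0.13, limma adjusted p = 3.63e-05), which left 22.5% of the level at 1-3 h (95% interval 18.2% to 27.8%).

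At the same age orb read 11.23, 11.79, 11.46 and 11.25. Replicate 2 was the highest, and all 4 were far under the early samples. The transcript fell by 2.14 (SE 0.17, limma adjusted p = 1.03e-04), to 22.7% (17.3% to 29.7%).

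For osk the samples read 10.44, 10.75, 11.08 and 10.74. The highest of them was below the lowest early sample, and the fall was 1.68 (SE 0.24, limma adjusted p = 0.00123), to 31.1% (21.2% to 45.6%). This call was lost when the 2-fold limit was made part of the test (limma's treat, adjusted p = 0.194). The 95% intervals of the 3 falls overlap.

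The pum samples read 14.14, 14.70, 14.51 and 14.31. All were below the lowest early sample, but the difference of -0.59 ± 0.17 (SE, limma adjusted p = 0.028) was under 2-fold, at 66.3% of the early level. The pgc samples read 14.97, 15.17, 15.33 and 15.22, a difference of -0.37 ± 0.13 (SE, limma adjusted p = 0.065). The zpg samples read 14.99, 15.03, 15.12 and 14.97, a difference of -0.36 ± 0.13 (SE, limma adjusted p = 0.064). For these last genes 77.6% and 78.1% of the early level was measured. The 95% intervals, 63.1% to 95.6% and 63.9% to 95.5%, leave out a fall of 2-fold or more in the normalized intensity. Both lie near the top of the scale, and whether intensity follows the amount of RNA there was not tested.

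At 5-7 h the wild-type samples split, and the split follows the markers. The osk samples read 10.97, 10.86, 7.82 and 7.70, so that replicates 1 and 2 were at the 3-5 h level and replicates 3 and 4 were below the dim limit and below every somatic sample. The orb samples read 11.21, 11.70, 9.23 and 9.33, with replicates 3 and 4 at the somatic level. The gcl samples read 12.17, 11.80, 11.36 and 10.90.

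The same order held for the other genes. The pum samples read 13.31, 14.40, 12.58 and 12.01, of which replicate 4 was within the somatic range and replicate 3 just above it. The zpg samples read 15.66, 15.76, 13.77 and 14.41 and the pgc samples 15.76, 15.93, 14.92 and 15.08. For both, replicates 1 and 2 were above every sample at 3-5 h, and for zpg replicates 3 and 4 were below every one. Replicates 3 and 4 remained above every somatic sample for pgc and zpg, which they did not for osk, gcl or orb.

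With all samples, no gene of the 6 was called between 3-5 h and 5-7 h, where 2.95% of all rows were called in either direction. An unadjusted limma p under 0.05 was found for 2 of the 6 genes, a count for which no share of all rows was taken. For gcl the difference was -1.16 ± 0.29 (SE, limma adjusted p = 0.066), with the samples not overlapping, where 9.68% of all rows were lower without overlap. Without replicates 3 and 4 it was -0.73 (limma adjusted p = 0.055), while osk and orb differed by 0.16 and 0.02 (limma adjusted p = 0.66 and 0.96). With all samples the osk and orb differences were -1.42 ± 0.80 and -1.07 ± 0.58 (SE). Without replicates 3 and 4 zpg differed by 0.68 (limma adjusted p = 0.037, under 2-fold) and pgc by 0.67 (limma adjusted p = 0.054), against -0.13 ± 0.44 and 0.25 ± 0.27 (SE) with them. For pum it was -1.34 ± 0.48 (SE, limma adjusted p = 0.145) with them and -0.56 (limma adjusted p = 0.31) without.

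From 1-3 h to 5-7 h, gcl, orb, osk and pum were called lower, 4 of 6 genes where 7.65% of all rows were. As at 3-5 h, this count is not independent of the lists that named the rows. The median difference over the 6 genes was -2.52, and over all rows -0.02. For gcl it was -3.31 ± 0.29 (SE, limma adjusted p = 0.00119) and for orb -3.21 ± 0.57 (SE, limma adjusted p = 0.0097), which are 10.1% and 10.8% of the early level. For osk it was -3.10 ± 0.81 (SE, limma adjusted p = 0.037) and for pum -1.93 ± 0.48 (SE, limma adjusted p = 0.030).

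Without replicates 3 and 4 the same 4 genes were called, with smaller falls: -2.89 for gcl (limma adjusted p = 7.23e-04), -2.12 for orb (0.00245), -1.52 for osk (0.0147) and -1.15 for pum (0.0451). The share of all rows called lower without those replicates is not given here. The calls of osk and pum were lost when any single 1-3 h replicate, or 5-7 h replicate 3 or 4, was left out, with adjusted p of up to 0.095 and 0.085. The genes pgc and zpg were not called with all samples, at -0.12 ± 0.27 and -0.49 ± 0.45 (SE), nor without replicates 3 and 4, at 0.31 and 0.32.

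The same course was measured in smg PGCs. From 1-3 h to 3-5 h only gcl was called lower, 1 of 6 genes beside 5.56% of all rows. By the labels dye and age cannot be told apart here.

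The gcl samples of smg PGCs read 14.72, 14.54 and 14.49 at 1-3 h and 13.34, 13.28 and 13.38 at 3-5 h. The later samples lay within 0.1 of each other and more than 1 below the earlier ones. The fall was 1.25 (SE 0.15, limma adjusted p = 0.0077), to 42.0% of the level at 1-3 h (95% interval 32.6% to 54.2%).

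The osk samples read 14.33, 14.51 and 14.24 and then 13.56, 13.91 and 13.38. They did not overlap, and the difference of -0.74 ± 0.20 (SE, limma adjusted p = 0.051) was under 2-fold and just missed the limit on p. The orb samples read 13.98, 13.99 and 13.92 and then 13.45, 13.41 and 13.62, again without overlap, and differed by -0.47 ± 0.15 (SE, limma adjusted p = 0.081). Over this step all later samples lay below all earlier ones for 21.9% of all rows, and above them for 17.8%.

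The pum samples read 15.03, 14.99 and 15.07 and then 15.07, 15.21 and 15.27, with all later samples at or above the earlier ones and a difference of 0.15 ± 0.15 (SE, limma adjusted p = 0.52). The pgc samples read 15.99, 15.87 and 15.92 and then 15.84, 15.81 and 15.84. The zpg samples read 15.61, 15.56 and 15.44 and then 15.50, 15.58 and 15.39. Both were at the top of the scale at each age, and they differed by -0.10 ± 0.14 and -0.04 ± 0.15 (SE).

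At 5-7 h the smg samples read 13.80, 13.64, 12.96 and 13.08 for osk, 12.75, 13.04, 12.23 and 12.68 for orb and 12.97, 13.31, 13.20 and 13.14 for gcl. Replicates 3 and 4 were the lower ones for osk and orb but not for gcl. For pum they read 14.03, 14.80, 13.02 and 13.60, again with replicates 3 and 4 lowest. The somatic marker sum in replicates 3 and 4, 4.93% and 4.21%, was above the 2.68% and 3.16% of replicates 1 and 2, though far under that of the wild-type replicates 3 and 4, and its part in this was not tested.

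The pgc samples of smg PGCs at 5-7 h read 15.75, 15.87, 15.62 and 15.73 and the zpg samples 15.99, 15.86, 15.90 and 15.91. The zpg values were among the 5 highest of all rows in every one of these samples and did not overlap the earlier ones, with a difference of 0.38 ± 0.15 (SE, limma adjusted p = 0.11) from 1-3 h. Higher values without overlap were seen for 18.9% of all rows against 1-3 h and for 17.6% against 3-5 h.

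Against 3-5 h, pum was called lower in smg PGCs, 1 of 6 genes beside 6.25% of all rows, by -1.32 ± 0.38 (SE, limma adjusted p = 0.0485). Without smg replicates 3 and 4 it was -0.77 (limma adjusted p = 0.12) and not called, and the call was also lost without any single sample of the comparison other than 5-7 h replicate 2. Against 1-3 h, gcl and orb were called, 2 of 6 genes beside 9.71% of all rows called lower. The fall of gcl was 1.43 (SE 0.17, limma adjusted p = 0.0012), to 37.2%, and that of orb 1.29 (SE 0.22, limma adjusted p = 0.0046), to 40.9%. For osk it was -0.99 ± 0.25 (SE, limma adjusted p = 0.023), just under 2-fold, and 50.3% of the level at 1-3 h was measured. Without 5-7 h replicate 2 osk and pum were called as well.

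**Figure D3:**
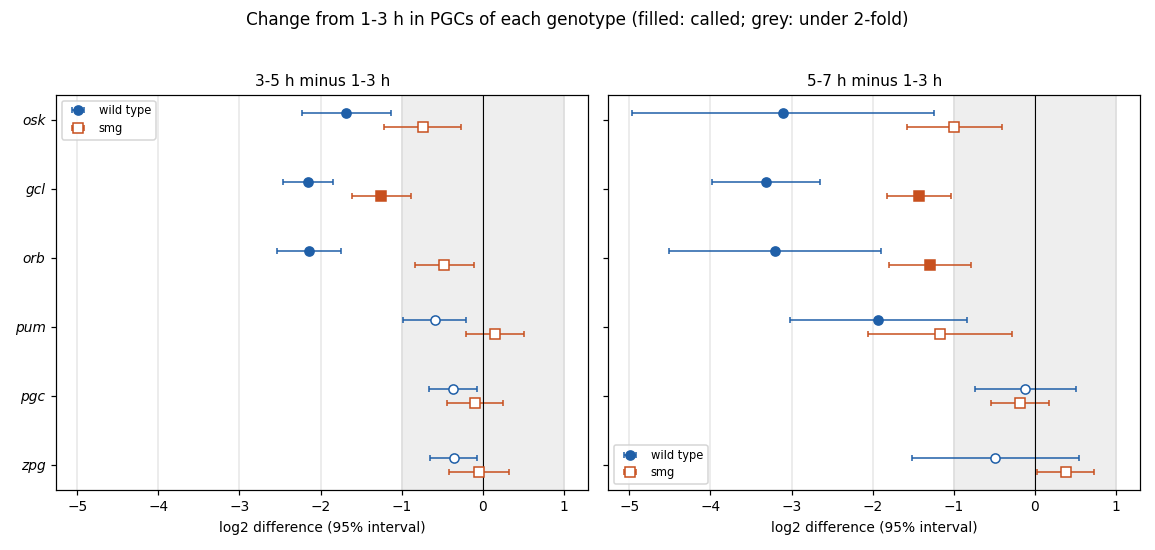
Log2 difference from 1-3 h at 3-5 h (left) and 5-7 h (right) for each transcript in wild-type (circles) and smg (squares) PGCs, with limma's 95% intervals. Filled symbols were called, and the grey band marks changes under 2-fold. In wild type gcl, orb and osk lie left of the band in both panels, with all samples included, and in smg PGCs only gcl does at 3-5 h.

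The genotypes were then set against each other at each age. At 1-3 h only osk was called higher in smg PGCs, 1 of 6 genes beside 7.46% of all rows. The markers moved with genotype at this age: the sum of nos, aub and piwi was 151% to 155% in smg and 93.95% to 105% in wild-type PGCs, and the somatic sum 3.42% to 5.47% and 6.97% to 9.07%, and the part of either in the osk difference was not tested. The osk samples at 14.24 to 14.51 were all above the wild-type samples at 11.83 to 12.90, by 1.92 ± 0.26 (SE, limma adjusted p = 0.00288), which is 3.79-fold (95% interval of smg as a percent of wild type 249.98% to 574.9%). All smg samples lay above all wild-type ones for 18.1% of all rows. The other 5 genes differed by -0.29 for gcl to 0.39 for orb and pgc, none past the adjusted p limit. By the labels both groups carried Cy5, and by the methods dye and genotype cannot be told apart.

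At 3-5 h osk and orb were called higher in smg PGCs, 2 of 6 genes beside 8.77% of all rows. The osk difference was 2.86 ± 0.20 (SE, limma adjusted p = 1.53e-04), or 7.28-fold, and the orb difference 2.06 ± 0.17 (SE, limma adjusted p = 2.73e-04), or 4.16-fold. For all 6 genes every smg sample lay above every wild-type sample, as it did for 20.7% of all rows. With the fold limit left aside all 6 passed the adjusted p limit, beside 16.2% of all rows that passed as higher, with differences of 0.46 for zpg, 0.61 for gcl, 0.65 for pgc and 0.77 for pum. Dye and genotype cannot be told apart at this age. The somatic marker sum was 15.5% to 19.99% in the wild-type and 3.23% to 4.86% in the smg samples. That of nos, aub and piwi was 55.02% to 68.2% in the wild-type and 109% to 132% in the smg samples. The smg means of nos (14.7 against 13.9) and piwi (14.7 against 12.9) were higher than in wild type, and that of aub (12.2 against 12.7) was lower. Of the 12 somatic markers 9 were called lower and 1 higher in smg PGCs, beside 7.83% and 8.77% of all rows. The smg means of tll (8.9 against 12.8) and zen (8.9 against 12.4), not called lower in PGCs above, were lower than in wild type. That of Cg25C was 5.8 against 7.8, and that of sna was higher (9.7 against 8.2). The part of either sum in the differences of the 6 genes was not tested.

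At 5-7 h osk and gcl were called higher in smg PGCs, 2 of 6 genes beside 1.50% of all rows. The osk difference was 4.03 ± 0.81 (SE, limma adjusted p = 0.0445) and the gcl difference 1.60 ± 0.29 (SE, limma adjusted p = 0.036). By its brightest row (RA, with RD given below) orb differed by 2.31 ± 0.58 (SE, limma adjusted p = 0.080). Without wild-type replicates 3 and 4 these were 2.46 (limma adjusted p = 0.0096), 1.17 (0.0325) and 1.22 (0.0615), and the same 2 genes were called, beside 2.44% of all rows called higher. The differences of pum, zpg and pgc were 0.79, 1.02 and 0.32 with all samples and 0.0057, 0.21 and -0.10 without those replicates, none of them called. The osk call was lost without any single smg replicate or without wild-type replicate 3 or 4, with adjusted p of up to 0.138. The gcl call was lost without any single smg replicate or without wild-type replicate 2, 3 or 4, with adjusted p of up to 0.119. Without smg replicates 3 and 4 together neither was called (limma adjusted p = 0.269 for osk and 0.271 for gcl), and without wild-type replicate 2 orb was (0.0488). Over the 3 ages osk was thus called at each, and pum, pgc and zpg at none.

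**Figure D4:**
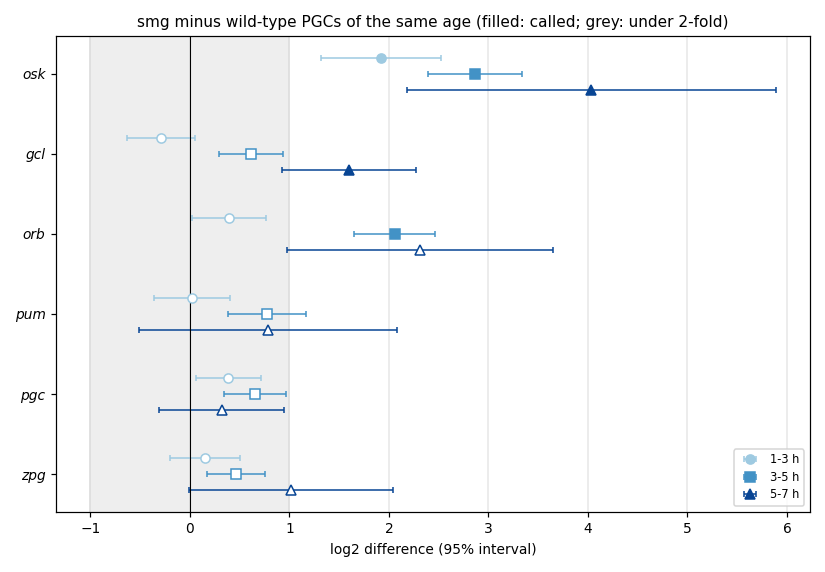
Log2 difference of smg minus wild-type PGCs at 1-3, 3-5 and 5-7 h for each transcript, with limma's 95% intervals. Filled symbols were called, and the grey band marks differences under 2-fold. For osk the 3 differences are 1.92, 2.86 and 4.03, and for the other 5 genes the 1-3 h difference lies within the band.

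Whether a transcript fell less in smg PGCs was tested as the difference between the changes. For the step to 3-5 h orb was called, 1 of 6 genes beside 3.85% of all rows called in that direction, with 1.67 ± 0.23 (SE, limma adjusted p = 0.00189). In wild type 22.7% of orb was left and in smg PGCs 72.02%. For gcl the difference was 0.90 ± 0.18 (SE, limma adjusted p = 0.010), under 2-fold, with 22.5% and 42.0% left. For osk it was 0.94 ± 0.33 (SE, limma adjusted p = 0.094), with 31.1% and 59.7% left, so the test did not separate the falls of osk in the 2 genotypes, while its level was called higher in smg PGCs at both ages. Without wild-type 1-3 h replicate 4 osk was called too (limma adjusted p = 0.0285). For pum it was 0.75 ± 0.22 (SE, limma adjusted p = 0.052), and for pgc and zpg 0.27 ± 0.17 and 0.31 ± 0.17 (SE). Dye is confounded with this difference by the labels, since the smg 3-5 h samples alone carried Cy3. In a fit of all 7 groups together, whose spread includes the wild-type 5-7 h samples, orb had an adjusted p of 0.121 from limma and was not called.

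For the step from 3-5 h to 5-7 h no gene of the 6 was called, with or without wild-type replicates 3 and 4, beside 3.15% of all rows. With all samples 1 of the 6 had an unadjusted limma p under 0.05, again without a share of all rows to set it against. Over the whole course to 5-7 h, in which by the labels all samples carried Cy5, gcl was called, 1 of 6 genes beside 2.08% of all rows. The difference was 1.89 ± 0.35 (SE, limma adjusted p = 0.010), with 10.1% of gcl left in wild-type and 37.2% in smg PGCs. Without wild-type replicates 3 and 4 it was 1.46 (limma adjusted p = 0.0040) and still called, beside 4.11% of all rows called higher. For orb it was 1.92 ± 0.68 (SE, limma adjusted p = 0.12) and 0.83 (limma adjusted p = 0.12) without those replicates, and for osk 2.11 ± 0.96 (SE, limma adjusted p = 0.22) and 0.53 (limma adjusted p = 0.45). Leaving out wild-type replicate 2 of 5-7 h brought orb past the limits as well. When the 2-fold limit was made part of the test (limma's treat), the calls of both interactions and of the genotypes at 1-3 h and 5-7 h were lost, and osk and orb at 3-5 h were still called. Over time, treat kept gcl and orb in wild type by 3-5 h, gcl alone by 5-7 h, and no gene in smg PGCs.

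The isoforms of orb were measured by rows for transcripts RA, RC and RD, which come from the same gene and may share probes. At 1-3 h in wild-type PGCs, RC read 13.02, 13.16, 13.62 and 13.71 and RD read 12.93, 13.09, 13.16 and 12.96. In the somatic samples RC read 8.69, 9.42, 8.16 and 7.85 and RD read 8.29, 8.40, 7.81 and 7.70, at or near the dim limit of 8.26. The difference between PGCs and somatic cells was 4.84 ± 0.33 for RC and 4.98 ± 0.19 for RD (SE, limma adjusted p = 2.16e-06 and 8.60e-08).

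All 3 isoforms were called lower at 3-5 h in wild type, and the amount left differed from 17.99% for RD and 22.7% for RA to 34.1% for RC. With treat the RC call was lost (limma adjusted p = 0.208). In smg PGCs, RC read 13.78, 14.13 and 13.71 at 1-3 h and 14.04, 13.86 and 14.36 at 3-5 h, which overlap. RD read 13.10, 12.84 and 12.92 and then 12.002, 12.07 and 12.32, a difference of -0.82 ± 0.17 (SE, limma adjusted p = 0.027). RC differed by 0.21 ± 0.21 and RA by -0.47 ± 0.15 (SE) over the same step, neither past the limit on p, and whether the isoforms differ from each other was not tested.

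The smaller fall in smg PGCs at 3-5 h was called for every isoform, with 1.76 ± 0.29 for RC and 1.66 ± 0.22 for RD (SE, limma adjusted p = 0.0044 and 0.0019). In the fit of all 7 groups together all 3 lost this call, with limma adjusted p of 0.121 for RA, 0.14 for RC and 0.0849 for RD, and with treat they lost it as well. From 3-5 h to 5-7 h in smg PGCs, RC fell to 12.66, 12.67, 11.75 and 11.87, a fall of 1.85 (SE 0.29, limma adjusted p = 0.0074). That call was lost with the replicate number as a block (-1.73, limma adjusted p = 0.0641) and with treat (0.429). RD at that age read 12.20, 12.41, 11.22 and 11.69, spread around its earlier level. Over the whole course the smaller fall in smg PGCs was called for RD alone, with 2.92 ± 0.59 (SE, limma adjusted p = 0.015) and 2.09 (limma adjusted p = 0.0064) without wild-type replicates 3 and 4. Between the genotypes at 5-7 h RD was called higher in smg PGCs, by 2.84 ± 0.51 (SE, limma adjusted p = 0.033). RC was not called (2.20 ± 0.57, limma adjusted p = 0.084). Without wild-type replicates 3 and 4 RD was still called, at 2.00 (limma adjusted p = 0.0289). The RD call was lost without smg replicates 3 and 4 (limma adjusted p = 0.193) and with treat (0.352). It was also lost without any single smg replicate or without wild-type replicate 4.

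**Figure D5:**
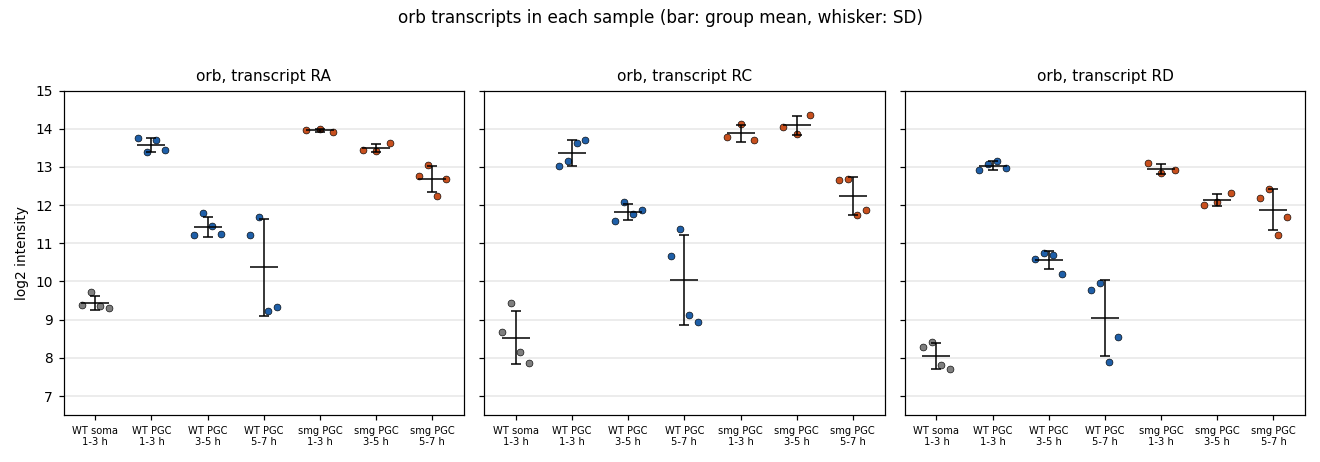
Log2 intensity of the orb transcripts RA, RC and RD in each of the 26 samples, by group, with bars for group means and whiskers for SDs. In smg PGCs at 3-5 h RC is at 14.09 in the mean, against 13.88 at 1-3 h, while RD is at 12.13 against 12.95.

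The order of the group means differed between the genes. For osk all smg groups came first, at 14.36, 13.62 and 13.37 by age, then wild-type PGCs at 12.44, 10.75 and 9.34 and somatic cells at 9.16 (wild type at 5-7 h was at 10.91 without replicates 3 and 4). Neighbours overlapped between smg 3-5 h and 5-7 h and among the last 3 groups. For gcl the PGCs of both genotypes at 1-3 h came first, at 14.87 in wild type and 14.58 in smg, followed by smg at 13.33 and 13.15, wild type at 12.72 and 11.56, and somatic cells at 11.36. The later smg groups overlapped each other, and so did wild-type PGCs at 5-7 h and somatic cells.

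For orb the early smg and wild-type groups, at 13.96 and 13.57, and smg at 3-5 h, at 13.49, were followed by smg at 5-7 h, at 12.68, with a gap to wild-type PGCs at 3-5 h, at 11.43. Neighbours that overlapped were wild type at 1-3 h with smg at 3-5 h, and each neighbouring pair among the last 3 groups. For pum the range over the PGC groups, from 15.19 in smg at 3-5 h to 13.08 in wild type at 5-7 h, was narrower than that of osk. For pgc all PGC group means lay between 15.17 and 15.93 and for zpg between 14.90 and 15.91, with somatic cells at 11.89 and 11.50 and no overlap with them. The SD in wild-type PGCs at 5-7 h, 0.50 to 1.82 over the 6 genes, was the largest of any group for each gene.

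Over the 26 samples the 6 transcripts varied together to different degrees, as a description over samples that share groups. Pearson's r was 0.98 between pgc and zpg, 0.94 between osk and orb and 0.92 between gcl and orb, and it was 0.62 between gcl and pgc and 0.67 between osk and pgc. Over the 24 samples without wild-type 5-7 h replicates 3 and 4 these were 0.99, 0.92, 0.91, 0.68 and 0.80. Among the named rows of other genes, those most like osk were aft (r = 0.96), stet (0.96) and Adh (0.96), of which Adh encodes alcohol dehydrogenase and stet a rhomboid protease of the germ line. Those most like gcl were CG8089, CG4407 and CG10254 (0.95 each). For orb they were CG4174 (0.97), Drep-1 (0.97) and iPLA2-VIA (0.96), and for pum Bsg25D (0.97), spir (0.97), an actin nucleator needed for oocyte polarity, and CG32350 (0.97). For pgc they were zpg (0.98), stil (0.98), a regulator of germ-line transcription, and Rel (0.97), the NF-kappaB factor Relish. For zpg they were Rel (0.98), pgc (0.98) and shu (0.98), a cochaperone of the piRNA pathway. Over the 24 samples 6 of these 18 were again among the 3 most alike: aft and stet for osk, CG4174 for orb, Bsg25D for pum, and pgc and zpg for each other. The other 12, which include all 3 of gcl, were not.

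Other components of polar granule and germ plasm assembly gave 21 named genes of a list of 28. Because naming favours transcripts of PGCs, the counts of this list and of the next ones are not independent evidence of a direction. In PGCs at 1-3 h 18 of the 21 were higher than in somatic cells and 0 were lower, with a median of 2.44 against 0.15 over all rows, of which 18.5% were called higher and 17.5% lower. The 4 with the largest differences were shu (5.45), armi (4.55), a piRNA helicase, spir (4.27) and exu (3.79), which localizes bicoid mRNA. By 3-5 h in wild type, 5 of the 21 fell and 0 rose, with a median of -0.55 against -0.03, beside 8.22% of all rows called lower and 9.02% called higher. The 4 largest falls were those of exu (-3.60), capu (-3.46), the formin that works with Spire, egl (-1.94), an adaptor for RNA transport, and BicC (-1.87), an RNA-binding repressor. In smg PGCs 3 of the 21 fell over that interval, beside 5.56% of all rows, namely capu (-1.92), egl (-1.20) and exu (-1.08).

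At 3-5 h 7 of the 21 were higher and 1 lower in smg than in wild-type PGCs, beside 8.77% and 7.83% of all rows. The higher ones with the largest differences were exu (2.58), AGO3 (1.87), piwi (1.76) and BicC (1.44), of which AGO3 and piwi encode Argonaute proteins of the piRNA pathway, and the lower one was par-1 (-1.15), a polarity kinase. The difference between the changes to 3-5 h was called for 4 of the 21, beside 3.85% of all rows, exu (2.53), spir (1.62), BicC (1.38) and AGO3 (1.07), with a median of 0.58 against 0.00086 over all rows. Over the whole course it was called for exu (3.87) and BicC (3.34), 2 of the 21 beside 2.08% of all rows. Without wild-type 5-7 h replicates 3 and 4 it was 2.75 for exu and 2.28 for BicC (limma adjusted p = 7.76e-04 and 0.00489), both still called, beside 4.11% of all rows.

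Among translational and decay partners of these genes, 15 of a list of 19 were named. In PGCs at 1-3 h 8 of 15 were higher than in somatic cells and brat (-1.51), a partner of Pumilio and Nanos, was lower, with a median of 1.13, beside 18.5% of all rows called higher and 17.5% lower. The largest differences were those of nos (5.91), the partner of Pumilio, aret (3.56), the Bruno repressor of osk, otu (2.61) and CycB (2.48). By 3-5 h in wild type otu (-1.93), Pop2 (-1.25), a deadenylase subunit, and smg (-1.14) fell, and 0 of 15 rose, with a median of -0.60, beside 8.22% of all rows called lower and 9.02% higher. Each listed gene is given by its brightest named row, and Pop2 has 2 such rows. The study's text names Pop2 both among the transcripts that fell and among those that rose at this age. In smg PGCs 0 of 15 fell and Hrb27C (1.01), whose protein binds osk mRNA, rose, beside 5.56% and 5.35% of all rows. The difference between the changes to 3-5 h was called, beside 3.85% of all rows, for aret (1.69), otu (1.35) and smg itself (1.24), with a median of 0.54 over the 15. The transcript of smg, the mutated gene, had means of 11.52 and 11.62 in smg PGCs at 1-3 and 3-5 h, against 13.71 and 12.57 in wild type. Its difference thus starts from a level already lowered in the mutant.

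The relatives of zpg went the other way. All 3 named innexins of a list of 7 were lower in PGCs than in somatic cells at 1-3 h, Inx3 by -6.36, ogre by -5.07 and Inx2 by -1.62, while zpg was 14.8-fold higher. Of all rows 17.5% were called lower. In wild-type PGCs at 3-5 h ogre (1.03) and Inx3 (1.01) were higher than at 1-3 h, beside 9.02% of all rows. Over that interval the somatic marker sum rose, with single markers going both ways. Of the complex that Pgc acts on, Cdk9 and CycT were named of a list of 6, and CycT (-1.65), its cyclin, was lower in PGCs than in somatic cells. Neither was called between ages or genotypes in any comparison run.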

How the data were processed

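The authors amplified total RNA from sorted cells with WT-Ovation Pico, labelled it with Cy3 or Cy5, hybridized 2 samples to each custom NimbleGen array, quantified scans in Nimblescan and normalized with the RMA quantile method of ArrayStar. The deposited intensity is linear, 1 value per transcript and sample. Which samples shared an array is not given in the sources used here, so it was not modelled. Log2 was taken and groups were compared with limma 3.58.1 in R 4.3.3 (lmFit, eBayes) on the samples compared, in place of the SAM test of the methods, with calls at an adjusted p of at most 0.05 and more than a 2-fold change. Rows were named as described above, and symbols missing from the lists came from RefSeq. The 6 genes and all gene lists were chosen with earlier results of these data known. The genes named are the 6, the 3 named rows most like each, and up to 4 called genes per list and direction. On simulated data with 200 of 16623 rows changed, 100 of them by 2 on the log2 scale, 66% of those 100 were recovered for wild-type 3-5 h against 1-3 h and 54% for the difference between the genotypes' changes to 3-5 h. Of the calls made there, 3.14% and 6.99% were false. The simulated noise was the row SD pooled over all 7 groups, wild-type 5-7 h included, and fewer rows were changed than were called in the data. These shares therefore do not give the recovery in the real comparisons. The number of arrays limits the precision. Alternatives were array weights, dim rows left out, centring on the median, quantile normalization repeated, a single fit of all groups, the replicate number as a block, no fold limit, treat, and samples left out. Leaving out smg 5-7 h replicates 3 and 4, alone or with the wild-type ones, was chosen after seeing the data, as was leaving out the wild-type ones in correlations, group means and gene lists. Replicates with the same number deviated together little or not at all (r from -0.144 to 0.216), so numbers were not taken to pair samples. For genotype at 5-7 h every r was above 0 (0.033 to 0.216), and with the replicate number as a block no gene was called there. Calculations outside R used Python.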

Additional observations from a re-analysis of the deposited data

Results flagged for a closer look

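The change over time differed between genotypes by the interaction test for 2 genes. From 1-3 h to 3-5 h, the log2 change of orb was higher in smg than in wild-type PGCs by 1.67 for transcript RA, 1.76 for RC and 1.66 for RD. These share 1 gene, and by the labels dye is confounded with the difference. From 1-3 h to 5-7 h, the change was higher in smg PGCs by 1.89 for gcl and by 2.92 for orb transcript RD. No sample of the 40 groups of 4 tested, over the 8 transcript rows, was an outlier by Dixon's criterion, by which chance gives about 1 group in 20. The wild-type 5-7 h samples split in pairs, which that criterion cannot find.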

How the results depend on the processing

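The count of genes called was 6 under every alternative for PGCs against somatic cells. Other counts moved. With treat against a 2-fold change they became 2 instead of 3 for wild-type 3-5 h against 1-3 h, where osk was lost (adjusted p = 0.194), 1 instead of 4 for wild-type 5-7 h against 1-3 h, and 0 for smg 3-5 h against 1-3 h, smg 5-7 h against 3-5 h and against 1-3 h, genotype at 1-3 h and 5-7 h, and the difference between changes to 3-5 h and over the whole course. With all 7 groups in 1 fit they became 3 for wild-type 5-7 h against 3-5 h (0 before), 4 for genotype at 5-7 h (2), 0 for the difference between changes to 3-5 h (1) and 2 over the whole course (1). With dim rows left out, wild-type 5-7 h against 3-5 h gave 1. Median centring gave 4 instead of 2 for smg 5-7 h against 1-3 h. A second quantile normalization gave 0 instead of 1 for smg 5-7 h against 3-5 h and 2 instead of 1 for the difference between changes to 3-5 h. Without the fold limit the counts were 2 for each of these, and 6 instead of 2 for genotype at 3-5 h. With the replicate number as a block they were 0 for smg 5-7 h against 3-5 h and 0 for genotype at 5-7 h, and 3 instead of 4 for wild-type 5-7 h against 1-3 h, where pum was lost. Without smg 5-7 h replicates 3 and 4 both were also 0, and without replicates 3 and 4 of both genotypes genotype at 5-7 h gave 1. With single replicates left out the counts ran from 0 to 1 for wild-type 5-7 h against 3-5 h, 2 to 4 against 1-3 h, 0 to 1 for smg 5-7 h against 3-5 h, 2 to 4 against 1-3 h, 0 to 2 for genotype at 5-7 h, 1 to 2 for the difference between changes to 3-5 h, 0 to 1 to 5-7 h and 1 to 2 over the whole course. The samples behind the moves not named with the results were wild-type 5-7 h replicate 2 (against 3-5 h) and replicate 1 (the step to 5-7 h). The cause of these moves was not tested.

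Of 1576 alternative values of single rows, 1443 kept direction and call, 81 lost the call, 27 gained it and 25 changed sign, all of them values not called. Without wild-type 5-7 h replicates 3 and 4, the 5-7 h against 3-5 h differences became 0.023 for orb, 0.16 for osk and 0.68 for zpg, those against 1-3 h 0.31 for pgc and 0.32 for zpg, genotype at 5-7 h -0.10 for pgc, and the whole-course difference between changes -0.018 for pum. Without replicates 3 and 4 of both genotypes, pgc differed by -0.036 between genotypes at 5-7 h. Without those of smg, 5-7 h against 3-5 h gave 0.17 for orb RD and 0.10 for osk. Array weights gave 0.49 for zpg in wild-type 5-7 h against 3-5 h, and against 1-3 h 0.20 for pgc and 0.12 for zpg. A second quantile normalization gave -0.11 for pum and -0.022 for zpg between genotypes at 1-3 h and 0.074 for pgc over the whole course, and the block -0.012 for pum between genotypes at 1-3 h. Single replicates left out gave ranges across 0 of -0.42 to 0.25 for zpg in wild-type 5-7 h against 3-5 h, -0.29 to 0.050 for pgc in wild-type 5-7 h against 1-3 h, -0.093 to 0.0052 for zpg in smg 3-5 h against 1-3 h, -0.049 to 0.088 for pum between genotypes at 1-3 h and -0.23 to 0.10 for pgc over the whole course.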
